A study of Mus musculus with 18 samples.

Results

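The comparison described here is that of cyclin C knockout with wild-type mouse embryonic stem (ES) cells, which are cultured cells from the early embryo that can form all its tissues. It comprised 6 of the 18 arrays of the study: 3 from ES cells of the genotype CCNC-/- and 3 from wild-type ES cells, which the sample titles call control. All transcript rows entered, with 1 row for each gene, chosen by the highest mean over the 18 arrays, which gave 17091 genes. The labels call the 3 samples of each genotype biological replicates and describe their growth only as standard. How the allele was made, the ES cell line, whether the knockout samples are separate clones, and the presence of feeder cells are not given in the labels used here. No group carried another allele or agent in the labels. The other arrays of the study came from embryonic fibroblasts and E18.5 brain of the same genotypes and are used only where a difference from ES cells was tested. Values are log2 signals, so that a difference of 1 is a doubling, and all differences are knockout minus wild type. A gene was called where the limma adjusted p over all 17091 genes was below 0.05, and "rose" and "fell" are used for called genes alone.

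Cyclin C binds the kinases CDK8 and CDK19, and together with MED12 and MED13 they form the kinase module, a detachable part of the Mediator complex that carries signals from transcription factors to RNA polymerase II. CDK8 and CDK19 phosphorylate transcription factors, among them the intracellular part of Notch and the lipid regulator SREBP, and the module can both hold back and aid transcription. In ES cells, Mediator occupies the genes that hold the cells in the pluripotent state, such as those for OCT4 and SOX2.

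Both groups carried the transcripts that define ES cells. Pou5f1, which encodes OCT4, gave 14.01, 13.87 and 13.85 in wild-type arrays 1 to 3 and 13.70, 13.83 and 14.03 in knockout arrays 1 to 3, against a mean of 5.97 in wild-type fibroblasts. Collagen Col1a1, a defining fibroblast gene, averaged 8.03 in wild-type and 8.11 in knockout ES cells, against 14.71 in fibroblasts. Over 20 fibroblast markers the mean level was 7.97, 7.96 and 8.01 in the wild-type arrays and 8.15, 8.05 and 7.83 in the knockout arrays. Arrays of 1 genotype correlated at 0.982 to 0.990 (wild type) and 0.976 to 0.989 (knockout). The median gene had an SD of 0.149 in wild-type and 0.164 in knockout arrays (n = 3 each). Over arrays 2 and 3 alone the median SD was 0.109 and 0.116 (n = 2 each). An SD of 2 arrays tends to be smaller than an SD of 3, so these values do not show what the arrays numbered 1 add.

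The array numbered 1 stood apart from arrays 2 and 3 in both genotypes. Eif2s3y, a Y-linked translation factor gene, gave 8.24, 4.002 and 4.21 in the wild-type and 7.46, 4.27 and 4.10 in the knockout arrays. The Y-linked helicase gene Ddx3y gave 7.75, 5.25 and 4.93 in the wild-type and 6.83, 5.06 and 5.01 in the knockout arrays. Both genes were thus high in the arrays numbered 1 alone. Xist, the RNA that silences an X chromosome, gave 9.11, 10.24 and 9.64 in the wild-type and 8.52, 9.51 and 9.76 in the knockout arrays, lowest in the array numbered 1 of each group. Over 619 X-linked genes the median difference of array 1 from the mean of arrays 2 and 3 was -0.356 in wild-type and -0.383 in knockout cells. The corresponding medians for single autosomes lay between -0.022 and 0.057 in wild-type and between -0.026 and 0.058 in knockout cells. A gene lower by more than 1 in array 1 was found among 12% of X-linked genes in wild-type and 17.4% in knockout cells, against 0.425% and 0.948% of autosomal genes. Each genotype group held 1 such array, which balances their number but not the size of the departures. Lower by more than 2 in array 1 were 6 X-linked genes in wild-type and 12 in knockout cells.

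**Figure D1:**
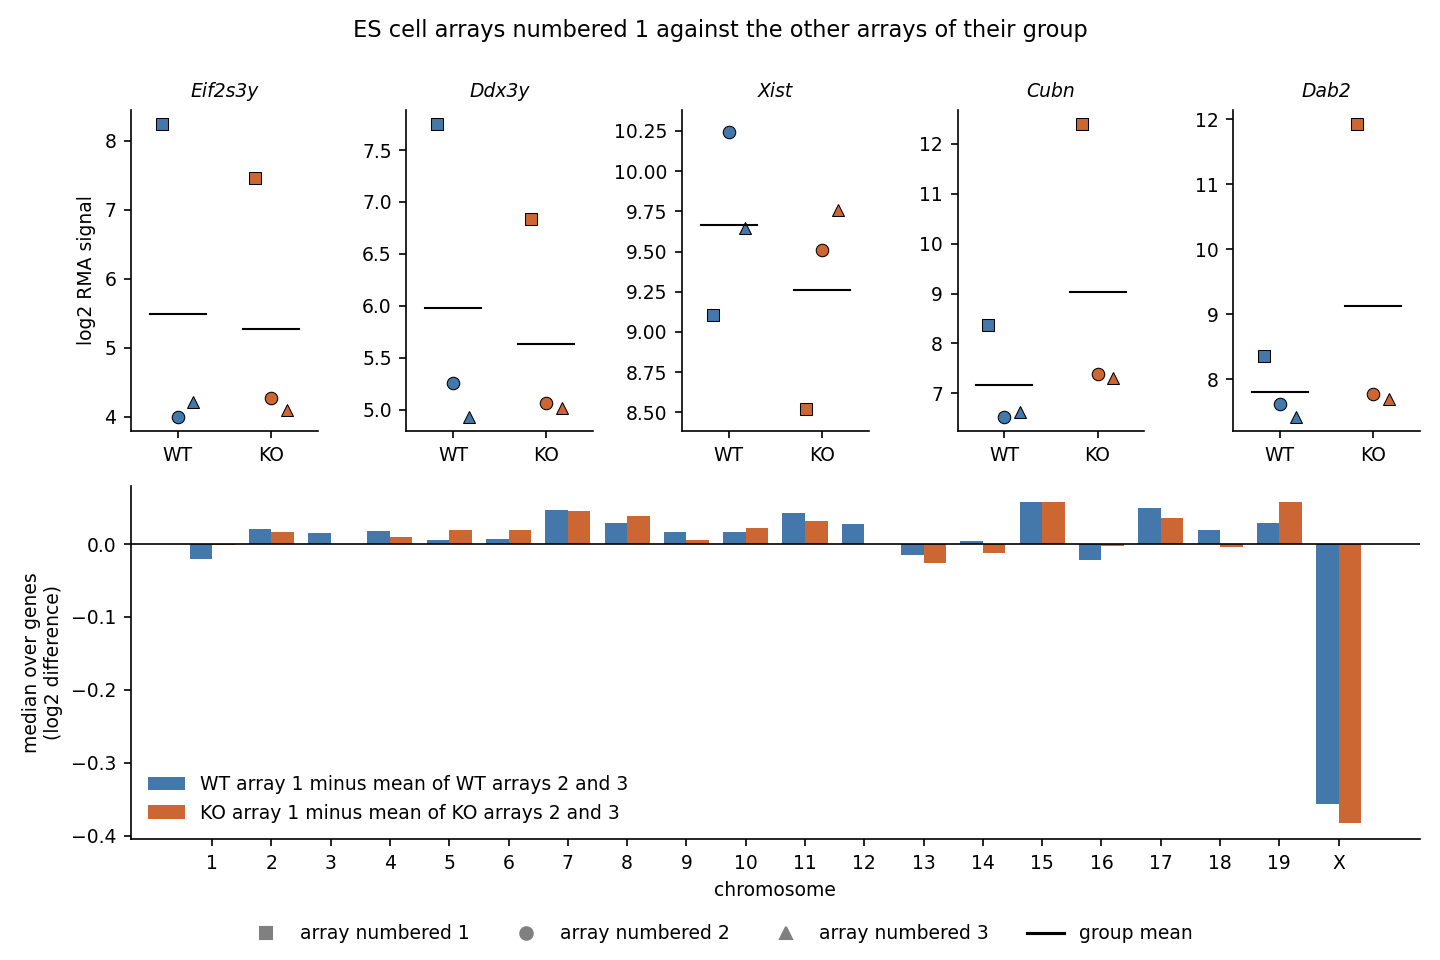
Top: log2 signal of Y-linked genes (Eif2s3y, Ddx3y), Xist and endoderm genes (Cubn, Dab2) in each wild-type (WT, blue) and knockout (KO, orange) ES cell array, with symbols for the array number and a line for the mean of 3 arrays. Bottom: median over the genes of each chromosome of array 1 minus the mean of arrays 2 and 3; the X chromosome stood at -0.356 (WT) and -0.383 (KO) while all autosomes lay between -0.026 and 0.058.

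Knockout array 1 also carried a high level of extraembryonic endoderm transcripts, which belong to the lineage that forms the yolk sac. Cubn, which encodes the endocytic receptor cubilin of yolk sac endoderm, gave 8.37, 6.53 and 6.62 in the wild-type and 12.39, 7.40 and 7.31 in the knockout arrays. Dab2, an endocytic adaptor gene, gave 8.35, 7.62 and 7.43 in the wild-type and 11.92, 7.77 and 7.70 in the knockout arrays. Gata6, the transcription factor that specifies primitive endoderm, gave 7.81, 7.10 and 7.41 in the wild-type and 10.80, 7.47 and 7.89 in the knockout arrays. For all 3 genes the single highest array was knockout array 1, and wild-type array 1 was the highest of its group. The mean level of 33 measured endoderm markers was 8.40, 7.96 and 8.05 in the wild-type and 9.92, 8.19 and 8.34 in the knockout arrays. In all, 42 genes were higher by more than 2 in knockout array 1 than in the mean of knockout arrays 2 and 3 and 30 were lower, against 6 and 8 genes for wild-type array 1. In such bulk samples, more cells of a type and more RNA per cell cannot be told apart. Differences below are given by array and, where they move by over 1.5 times, without both arrays numbered 1.

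Ccnc, the targeted gene, fell in the knockout cells. Its signal was 9.28, 9.47 and 9.14 in wild-type arrays 1 to 3 and 6.68, 6.78 and 7.33 in knockout arrays 1 to 3. All knockout arrays lay more than 1 log2 unit below all wild-type arrays, and the arrays numbered 1 did not stand apart. The difference was -2.37 (SE 0.19, limma adjusted p = 0.0247), and the mean knockout signal was 19.4% of that in wild-type cells. A second Ccnc probe set with dimmer signal gave 5.82, 6.68 and 6.41 in the wild-type and 5.11, 5.09 and 5.25 in the knockout arrays, a difference of -1.15. The labels do not place these probes against the region removed from the gene. Without both arrays numbered 1 the Ccnc difference was -2.25 and its adjusted p 0.0536 (limma), on the other side of the threshold. Leaving out any single array gave adjusted p-values between 0.0111 and 0.299, and the call was lost without wild-type array 1, 2 or 3 (0.21, 0.231 and 0.11) and without knockout array 2 (0.299). With a term for the arrays numbered 1 in the fit, an alternative chosen after seeing the data, the adjusted p was 0.0223. With a term for every array number, the replicate block, it was 0.0677 (limma), and the call was lost.

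The partners of cyclin C in the kinase module were not called, and their values lay close together. The kinase gene Cdk8 gave 10.65, 10.83 and 10.64 in the wild-type and 10.48, 10.71 and 10.66 in the knockout arrays, a difference of -0.09 (SE 0.12). Its paralogue Cdk19 differed by -0.12 (SE 0.13). Of the module's scaffold genes, Med12 differed by 0.06 (SE 0.23), Med13 by -0.09 (SE 0.18), Med13l by -0.13 (SE 0.13) and Med12l by 0.34 (SE 0.20), with overlapping groups in each case. The values without both arrays numbered 1 were -0.05 for Cdk8, -0.20 for Med13 and 0.17 for Med12l. Among 25 measured genes of core Mediator, the part that binds the polymerase, 12 had a higher and 13 a lower knockout mean, with a median of -0.003 and a range from -0.255 to 0.222. No array group separated for any of these 25 genes. Over all genes, 42.7% had a higher and 57.3% a lower knockout mean, and the median difference was -0.033. Groups lay apart for 15.6% of genes, with the knockout arrays above in 6.34% and below in 9.3%.

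The genes next to Ccnc on chromosome 4 were read as well, chosen for their position and not for their values. Of the 5 measured genes on each side, none was called. Tstd3, the neighbour with the largest difference, gave 9.43, 8.93 and 8.87 in the wild-type and 9.38, 9.80 and 9.79 in the knockout arrays. Its knockout arrays 2 and 3 were above every wild-type array, while both arrays numbered 1 were alike (difference 0.58, SE 0.19, limma adjusted p = 0.547, and 0.89 without the arrays numbered 1). The deubiquitinase gene Usp45 on the same side differed by 0.14 (SE 0.17).

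The only other called gene was 4933402E13Rik, an X-linked gene that the reference table names only by its clone number, and it rose. Its signal was 6.64, 6.96 and 6.96 in the wild-type and 9.81, 10.07 and 10.68 in the knockout arrays. The groups were about 3 log2 units apart and array 1 was the lowest of both. The difference was 3.33 (SE 0.23, limma adjusted p = 0.0161), a 10.04-fold higher signal. Its call, like that of Ccnc, was lost without wild-type array 1, 2 or 3 and without knockout array 2, with an adjusted p of up to 0.197. The call count was thus 2 of 17091 genes (0.0117%), against 1446 genes (8.46%) with an unadjusted p below 0.05. A difference of 1 or more was found in 69 genes upward, 41 of them with groups that did not overlap, and in 12 genes downward, 7 of them with groups that did not overlap.

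Other genes fell short of the adjusted threshold although their groups lay well apart. Fthl17a, an X-linked ferritin heavy chain-like gene, gave 7.35, 7.20 and 7.39 in the wild-type and 8.68, 8.78 and 9.26 in the knockout arrays (difference 1.59, SE 0.17, limma adjusted p = 0.0738). Gng10, which encodes a G protein gamma subunit and is named for its small p after its values were seen, gave 9.16, 9.10 and 9.03 in the wild-type and 10.08, 10.28 and 10.24 in the knockout arrays (1.1, SE 0.11, 0.0738). Ubd, a ubiquitin-like modifier gene named on the same ground, gave 7.68, 7.96 and 8.46 in the wild-type and 6.50, 6.55 and 6.20 in the knockout arrays (-1.62, SE 0.21, 0.183). In each of the 3 genes every knockout array was on the same side of every wild-type array, and the arrays numbered 1 lay within or next to their group. Khsrp, which encodes an RNA-binding protein that promotes mRNA decay, gave 12.16, 12.05 and 12.11 in the wild-type and 11.45, 11.36 and 11.29 in the knockout arrays (-0.74, SE 0.10, 0.183).

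**Figure D2:**
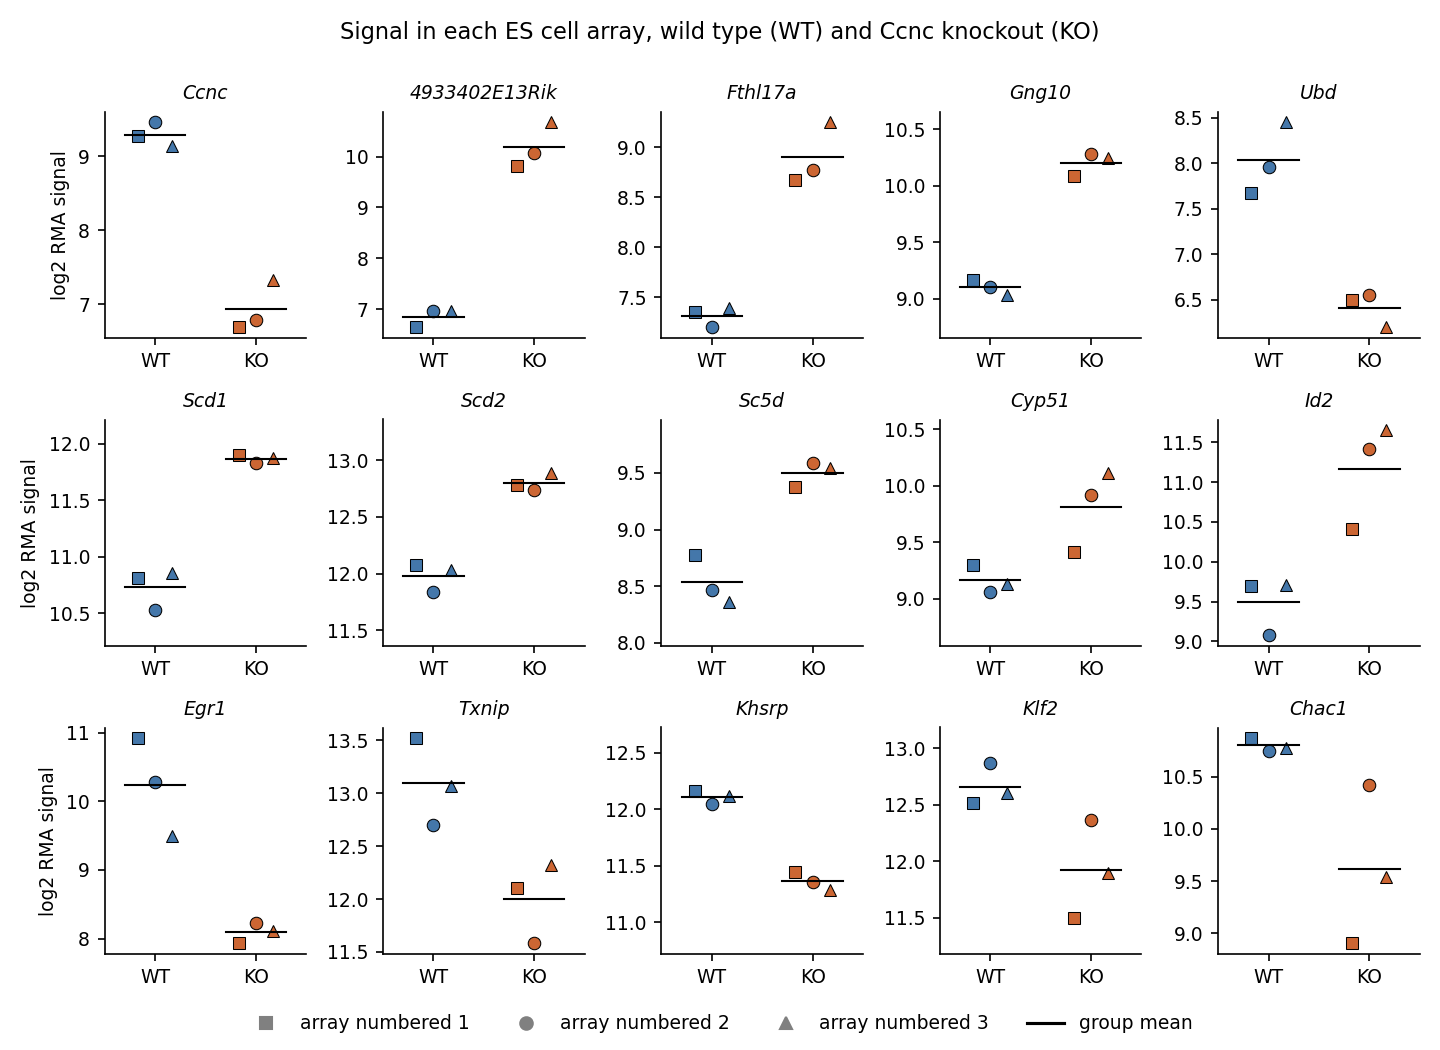
Log2 signal of 15 genes in each wild-type (WT, blue) and knockout (KO, orange) ES cell array; squares are arrays numbered 1, circles arrays numbered 2, triangles arrays numbered 3, and the line is the mean of 3 arrays. Each panel has its own axis, and in every panel the knockout arrays lie on 1 side of the wild-type arrays; of these genes only Ccnc (-2.37) and 4933402E13Rik (3.33) passed the adjusted p.

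Several of the largest upward differences belonged to X-linked genes. Over all 619 X-linked genes the median difference was 0.014, with all knockout arrays above in 23 genes and below in 42 (6.34% and 9.3% over all genes). Among the 20 largest upward differences with groups that did not overlap and the higher group mean above the median gene, 8 were X-linked. This was so for 1 of the 20 largest downward ones and for 3.62% of all genes, the latter taken without that rule. A gene could enter through 1 group alone, as 4933402E13Rik did through its knockout arrays. The 8 genes included the reproductive homeobox genes Rhox5, Rhox6 and Rhox9, which lie in 1 cluster. Rhox6 gave 7.81, 9.99 and 11.17 in the wild-type and 11.65, 12.11 and 12.04 in the knockout arrays (2.28, SE 0.73). Rhox5 gave 11.15, 12.51 and 13.79 in the wild-type and 14.15, 14.27 and 13.99 in the knockout arrays (1.65, SE 0.57), and Rhox9 gave 8.69, 10.14 and 10.73 in the wild-type and 11.20, 11.55 and 11.53 in the knockout arrays (1.58, SE 0.46). The knockout arrays were alike for these 3 genes while the wild-type arrays spread over more than 2 log2 units, lowest in array 1. When both arrays numbered 1 were left out the differences were 1.5, 0.98 and 1.11. Rnf128, an X-linked ubiquitin ligase gene, gave 10.001, 10.19 and 10.43 in the wild-type and 10.72, 11.60 and 12.59 in the knockout arrays (1.43, SE 0.42). None of these genes was called (limma adjusted p = 0.522 to 0.547).

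Outside the X chromosome, large upward differences with groups apart included that of Id2, an inhibitor of helix-loop-helix transcription factors and a target of BMP signalling. Its signal was 9.69, 9.08 and 9.71 in the wild-type and 10.41, 11.42 and 11.66 in the knockout arrays. The groups did not overlap, and knockout array 1 was closest to the wild type (difference 1.67, SE 0.33, limma adjusted p = 0.501). Without both arrays numbered 1 the difference was 2.14 (adjusted p = 0.0594). Htra1, a secreted serine protease gene, gave 9.41, 9.80 and 10.59 in the wild-type and 12.01, 11.20 and 11.47 in the knockout arrays (1.63, SE 0.32). Gpat3, an acyltransferase gene of glycerolipid synthesis, gave 6.12, 6.67 and 7.99 in the wild-type and 8.16, 8.59 and 8.85 in the knockout arrays (1.61, SE 0.44). The mitochondrial creatine kinase gene Ckmt1 gave 7.75, 7.92 and 8.41 in the wild-type and 9.02, 9.49 and 9.67 in the knockout arrays (1.37, SE 0.23). The wild-type arrays of Htra1 and Gpat3 were spread more widely than those of Ckmt1. The adjusted p was 0.501 for Id2 and Htra1, 0.522 for Gpat3 and 0.422 for Ckmt1 (limma).

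The largest downward difference after Ccnc was that of Egr1, an immediate early gene that growth factor and ERK signals switch on. Its signal was 10.92, 10.28 and 9.50 in the wild-type and 7.93, 8.22 and 8.12 in the knockout arrays. The knockout arrays agreed within 0.3 log2 units while the wild-type arrays spread over more than 1 (difference -2.14, SE 0.32, limma adjusted p = 0.295). Txnip, a thioredoxin-binding protein gene that glucose induces, gave 13.52, 12.70 and 13.07 in the wild-type and 12.10, 11.58 and 12.32 in the knockout arrays (-1.1, SE 0.25). Its relative Arrdc4, an arrestin domain gene also induced by glucose, gave 10.36, 10.13 and 10.08 in the wild-type and 9.55, 9.59 and 9.43 in the knockout arrays (-0.67, SE 0.12). Both genes had all knockout arrays below all wild-type arrays, with adjusted p = 0.501. Atp1b2, a sodium pump subunit gene (-0.95, SE 0.16), Mmp11, a matrix metalloproteinase gene (-0.78, SE 0.13), and Tasor, a component of the HUSH silencing complex (-0.93, SE 0.21), had groups that did not overlap either. The Krüppel-like factor gene Klf11, a TGF-β-inducible repressor, gave 10.38, 10.13 and 10.16 in the wild-type and 9.62, 9.68 and 9.39 in the knockout arrays (-0.66, SE 0.13).

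Genes of sterol and fatty acid synthesis were higher in the knockout cells by a small amount that most of them shared. SREBP transcription factors switch these genes on when cells are short of sterols, with the help of the CCAAT-binding factor NF-Y. Of 40 measured genes, 38 had a higher knockout mean (42.7% over all genes) and 2 a lower one, with a median difference of 0.39. In 19 genes all knockout arrays lay above all wild-type arrays (6.34% over all genes), and in none below. No gene of these lists was called. Like the other lists, they were chosen with earlier results of these data known, so the counts describe the lists and do not test them. The mean level of the 21 sterol genes was 10.18, 9.92 and 10.06 in the wild-type and 10.49, 10.46 and 10.52 in the knockout arrays. The knockout arrays were alike here, array 1 included, and all above the wild-type arrays. The median of the 40 genes was 0.46 without both arrays numbered 1. Leaving out single arrays, the sterol median of 0.45 ran from 0.34 to 0.52. The fatty acid median of 0.36 ran from 0.27 to 0.39.

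Along the sterol pathway, the early enzyme HMG-CoA synthase, encoded by Hmgcs1, gave 11.94, 11.58 and 11.32 in the wild-type and 12.23, 11.71 and 11.98 in the knockout arrays. Its groups overlapped (0.36, SE 0.19). The squalene epoxidase gene Sqle gave 11.40, 11.21 and 11.41 in the wild-type and 11.74, 11.86 and 11.91 in the knockout arrays (0.50, SE 0.11). Its groups did not overlap. The lanosterol demethylase gene Cyp51 gave 9.30, 9.06 and 9.13 in the wild-type and 9.41, 9.92 and 10.11 in the knockout arrays (0.65, SE 0.19), with knockout array 1 nearest the wild type. The late enzymes Sc5d, the sterol C5-desaturase, and Dhcr7, which makes cholesterol in the last step of 1 branch, completed the pathway. Sc5d gave 8.77, 8.47 and 8.36 in the wild-type and 9.37, 9.59 and 9.54 in the knockout arrays (0.97, SE 0.14, limma adjusted p = 0.288). Dhcr7 gave 10.78, 10.21 and 10.49 in the wild-type and 11.12, 10.93 and 11.01 in the knockout arrays (0.53, SE 0.16). Nsdhl and Ebp, the X-linked enzymes of the pathway and singled out here after their values were seen, were low in both arrays numbered 1. Nsdhl gave 10.34, 10.89 and 10.89 in the wild-type and 10.82, 11.63 and 11.62 in the knockout arrays, and Ebp gave 10.49, 11.17 and 11.51 in the wild-type and 10.74, 12.13 and 11.86 in the knockout arrays. For both genes knockout arrays 2 and 3 lay above all wild-type arrays and knockout array 1 did not.

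Among fatty acid genes, the stearoyl-CoA desaturases, which make monounsaturated fatty acids, had the largest differences. Scd1 gave 10.82, 10.53 and 10.86 in the wild-type and 11.90, 11.83 and 11.87 in the knockout arrays (1.14, SE 0.12, limma adjusted p = 0.0738), which is a 2.20-fold higher signal. Scd2 gave 12.07, 11.84 and 12.03 in the wild-type and 12.78, 12.74 and 12.89 in the knockout arrays (0.82, SE 0.10, 0.164). For both genes the knockout arrays lay within 0.2 log2 units of each other. The polyunsaturated fatty acid desaturases Fads1 (0.44, SE 0.10) and Fads2 (0.45, SE 0.11) and the citrate lyase gene Acly (0.36, SE 0.11), which makes cytosolic acetyl-CoA, had groups that did not overlap. The chain-building enzymes differed less: Fasn, fatty acid synthase, by 0.13 (SE 0.14) and Acaca, acetyl-CoA carboxylase 1, by 0.09 (SE 0.14), both with overlapping groups. Leaving out both arrays numbered 1 made them 0.00 and 0.05. The SREBP genes themselves, Srebf1 and Srebf2, outside the naming rule and given for their role, differed by 0.15 (SE 0.12) and 0.17 (SE 0.20), with overlapping groups.

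**Figure D3:**
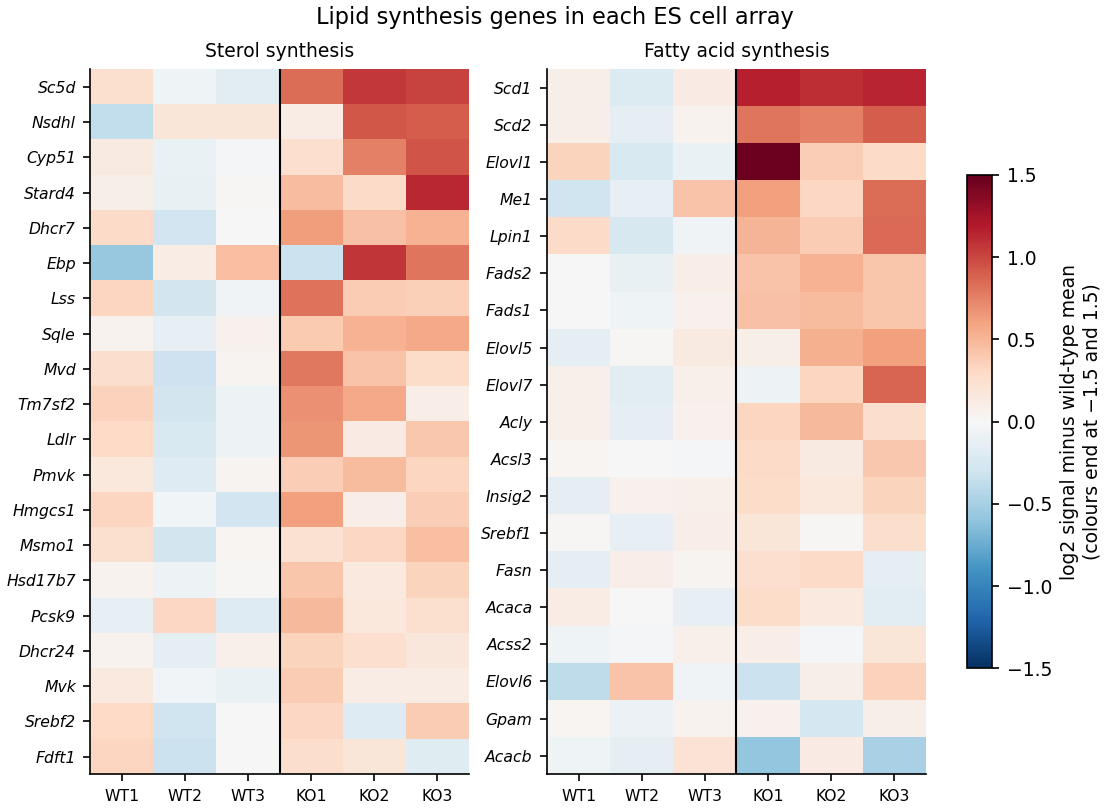
Log2 signal minus the wild-type mean of measured genes of sterol (20 of 21) and fatty acid synthesis (all 19) in the 3 wild-type (WT) and 3 knockout (KO) ES cell arrays, genes ordered by the group difference; the colour scale ends at -1.5 and 1.5. Scd1 (1.14), Sc5d (0.97) and Scd2 (0.82) are strong in all 3 knockout arrays, and the X-linked Ebp and Nsdhl are lowest of each group in the arrays numbered 1.

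Upstream promoter sequence is shown for 3 sterol genes with different matches because SREBP and NF-Y bind such promoters together. Over the 250 bases before the start of a gene (RefSeq, build GRCm38.p6), CCAAT on either strand was found in 34.5% of 27025 promoters and in 13 of 14 sterol genes with a promoter entry (92.9%). Among fatty acid genes 9 of 16 held it. The sterol regulatory element written TCACNCCAC, on either strand, was found in 1.04% of promoters and in 1 of the 14 sterol genes, Hmgcs1. These motifs do not overlap each other in Hmgcs1. Matches are in capitals (ATTGG is CCAAT on the other strand), and a match is a description of letters and not of binding. The stretch of Hmgcs1 ends 41 bases before the gene start, and those of Sc5d and Cyp51 end 1 base before it.
Hmgcs1 (chr13:119690114-119690310, plus strand): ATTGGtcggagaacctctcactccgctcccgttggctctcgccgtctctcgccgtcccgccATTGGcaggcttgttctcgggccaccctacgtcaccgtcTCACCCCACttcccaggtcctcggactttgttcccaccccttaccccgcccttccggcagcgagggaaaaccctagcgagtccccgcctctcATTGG
Sc5d (chr9:42264301-42264420, minus strand): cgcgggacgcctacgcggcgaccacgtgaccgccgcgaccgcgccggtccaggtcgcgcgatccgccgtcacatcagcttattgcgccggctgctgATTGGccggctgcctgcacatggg
Cyp51 (chr5:4104698-4104817, minus strand): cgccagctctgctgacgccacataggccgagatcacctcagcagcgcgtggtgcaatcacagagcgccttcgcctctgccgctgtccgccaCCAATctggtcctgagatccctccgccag

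Genes of the ATF4 response, which raises amino acid synthesis and import when amino acids run short or proteins misfold, were lower in the knockout arrays, and least so in knockout array 2. Of 26 measured genes, 25 had a lower knockout mean (57.3% over all genes), with a median of -0.40, and in 6 all knockout arrays lay below all wild-type arrays (9.3% over all genes). None was called. The mean level was 11.10, 10.85 and 11.04 in the wild-type and 10.24, 10.90 and 10.64 in the knockout arrays. Knockout array 1 was thus lowest, knockout array 3 was between, and knockout array 2 was within the wild-type range. Without both arrays numbered 1 the median was -0.19, with 23 of 26 genes lower. Extraembryonic endoderm markers were highest in the same knockout array 1 (27 of 33 with a higher knockout mean, mean levels of 7.96 to 8.40 in wild-type and 8.19 to 9.92 in knockout arrays), and their part in the result was not tested. The control probe sets for 18S ribosomal RNA were lowest in knockout arrays 1 and 3 as well. The 3′ set gave 11.29, 11.002 and 11.15 in the wild-type and 9.97, 10.87 and 9.99 in the knockout arrays. The middle set gave 11.10, 10.83 and 10.55 in the wild-type and 9.39, 10.59 and 9.47 in the knockout arrays, and the 5′ set gave 11.29, 10.62 and 9.91 in the wild-type and 9.41, 10.71 and 9.43 in the knockout arrays. Among wild-type arrays the order differed between the sets, and the part of this signal in the result was not tested.

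Atf4, the transcription factor itself, gave 12.62, 12.64 and 12.78 in the wild-type and 12.002, 12.51 and 12.15 in the knockout arrays (-0.46, SE 0.14, limma adjusted p = 0.522). Chac1, a glutathione-degrading enzyme gene and a direct ATF4 target, gave 10.87, 10.75 and 10.78 in the wild-type and 8.90, 10.42 and 9.54 in the knockout arrays (-1.18, SE 0.34). The wild-type arrays agreed within 0.2 log2 units and every knockout array was lower. The pseudokinase gene Trib3 gave 10.36, 10.19 and 10.47 in the wild-type and 9.43, 10.08 and 9.59 in the knockout arrays (-0.64, SE 0.18). Ddit3, which encodes the stress factor CHOP, gave 10.38, 9.89 and 10.01 in the wild-type and 9.38, 9.39 and 9.77 in the knockout arrays (-0.58, SE 0.17). For both genes the groups did not overlap, by a narrow margin. The alanyl-tRNA synthetase gene Aars gave 13.25, 13.00 and 13.15 in the wild-type and 12.46, 13.02 and 12.54 in the knockout arrays (-0.46, SE 0.16). Its knockout array 2 was within the wild-type range. Atf3, a stress-induced partner of ATF4, differed by -0.06 (SE 0.20). When both arrays numbered 1 were left out the differences were -0.79 for Chac1, -0.37 for Ddit3, -0.29 for Aars and -0.19 for Atf3.

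The CHOP-ATF4 composite element written TGATGNAA, on either strand, was found in the 250 upstream bases of 6 of 23 ATF4 response genes with a promoter entry (26.1%), against 3.53% of all promoters. Stretches of 3 of them, Chac1, Aars and Atf3, are shown, since their differences over all 6 arrays ran from -1.18 for Chac1 over -0.46 for Aars to -0.06 for Atf3 although each held the same letters, in capitals on the opposite strand.
Chac1 (chr2:119350993-119351112, plus strand): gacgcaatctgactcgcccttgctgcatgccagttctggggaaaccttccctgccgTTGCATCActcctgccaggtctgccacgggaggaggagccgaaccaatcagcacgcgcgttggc
Aars (chr8:111033674-111033793, plus strand): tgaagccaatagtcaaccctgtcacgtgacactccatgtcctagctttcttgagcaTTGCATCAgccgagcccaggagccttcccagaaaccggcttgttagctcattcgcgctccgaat
Atf3 (chr1:191183380-191183499, minus strand): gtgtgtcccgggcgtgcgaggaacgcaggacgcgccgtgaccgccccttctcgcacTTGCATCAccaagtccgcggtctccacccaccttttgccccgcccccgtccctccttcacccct

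The unfolded protein response of the endoplasmic reticulum, whose ATF6 and XBP1 arms raise chaperones, was not lower alongside. Of its 15 measured genes, 13 stood higher in the knockout by mean, with a list median of 0.25. The chaperone gene Hspa5 gave 11.89, 11.94 and 11.87 in the wild-type and 12.42, 12.08 and 11.94 in the knockout arrays (0.25, SE 0.13). The co-chaperone gene Dnajc3 gave 8.24, 8.27 and 7.97 in the wild-type and 8.79, 8.44 and 8.64 in the knockout arrays (0.46, SE 0.14), and the disulfide isomerase gene Pdia6 gave 12.60, 12.40 and 12.37 in the wild-type and 13.11, 12.78 and 12.64 in the knockout arrays (0.38, SE 0.14). Knockout array 1 was the highest array for all 3 genes, and without both arrays numbered 1 the list median was 0.11 and the Hspa5 difference 0.11. Herpud1, a degradation factor gene, was among the 2 with a lower mean. It gave 9.31, 9.31 and 9.45 in the wild-type and 8.97, 9.16 and 8.93 in the knockout arrays (-0.34, SE 0.12). The endoderm marker levels given above were also highest in knockout array 1, and their part in this difference was not tested.

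Pluripotency genes had lower knockout means. Of 15 measured core genes 14 were lower, with a median of -0.23, and Nanog was not among the genes measured. Of 20 genes of the naive state, that of the early epiblast held by LIF, 17 were lower, with a median of -0.16. Each list had 2 genes with all knockout arrays below, against 9.3% of all genes, and none called. In the 4 arrays numbered 2 and 3, 12 of 15 core and 13 of 20 naive genes were lower, and leaving out single arrays took the naive median from -0.40 to -0.03. Naive genes were lower in knockout array 1 than in the mean of arrays 2 and 3 by a median of -0.616, and the endoderm markers were higher there by a median of 1.375. The part of these markers in the difference was not tested. Among the core genes, Sox2 gave 13.03, 13.27 and 13.26 in the wild-type and 12.72, 13.12 and 13.12 in the knockout arrays (-0.20, SE 0.13). Tdgf1, which encodes the Nodal co-receptor Cripto, gave 12.50, 12.58 and 12.67 in the wild-type and 11.50, 12.47 and 12.28 in the knockout arrays (-0.50, SE 0.23), with knockout array 1 far below the others. Its difference was -0.25 without both arrays numbered 1. Trim28, a corepressor gene, gave 14.44 in all 3 wild-type arrays and 14.24, 14.28 and 14.09 in the knockout arrays (-0.23, SE 0.07). Zfp42, the marker also called Rex1, gave 11.67, 13.12 and 12.80 in the wild-type and 11.57, 12.60 and 11.30 in the knockout arrays (-0.71, SE 0.44), with overlapping groups.

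Among the naive genes, the Krüppel-like factor gene Klf2 gave 12.51, 12.87 and 12.60 in the wild-type and 11.50, 12.36 and 11.90 in the knockout arrays (-0.74, SE 0.21, limma adjusted p = 0.522). Its relative Klf4 gave 10.38, 11.61 and 11.36 in the wild-type and 9.6, 10.83 and 10.69 in the knockout arrays (-0.74, SE 0.41). In Klf4 both arrays numbered 1 were about 1 log2 unit below the others of their group, so that the groups overlapped, and the difference without both arrays numbered 1 was -0.73. Fgf17 gave 7.56, 7.51 and 7.5 in the wild-type and 6.53, 7.18 and 6.62 in the knockout arrays (-0.75, SE 0.18). Esrrb, an orphan receptor gene of the naive network, differed by -0.15 (SE 0.23) and Tet2, a 5-methylcytosine oxidase gene, by -0.38 (SE 0.16).

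Markers of the primed epiblast, the later state that leaves naive pluripotency, were lower too. Of 17 measured genes 14 had a lower knockout mean, with a median of -0.28, and in 8 all knockout arrays lay below all wild-type arrays, against 9.3% of all genes. None was called. Otx2, the transcription factor that drives the exit from the naive state, gave 10.81, 9.94 and 9.85 in the wild-type and 8.31, 9.81 and 9.50 in the knockout arrays (-0.99, SE 0.42). Its difference was -0.23 without both arrays numbered 1, and those of Pou3f1 and Lef1 were -0.41 and -0.56. Pou3f1, which encodes OCT6, gave 9.43, 8.65 and 8.71 in the wild-type and 8.18, 8.38 and 8.17 in the knockout arrays (-0.69, SE 0.21). Zic2 gave 8.01, 7.45 and 7.22 in the wild-type and 6.59, 6.36 and 7.09 in the knockout arrays (-0.88, SE 0.25), and Lef1, a transcription factor of Wnt signalling, gave 8.19, 7.0 and 6.96 in the wild-type and 6.69, 6.45 and 6.38 in the knockout arrays (-0.88, SE 0.32). In all 4 genes wild-type array 1 was the highest array.

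**Figure D4:**
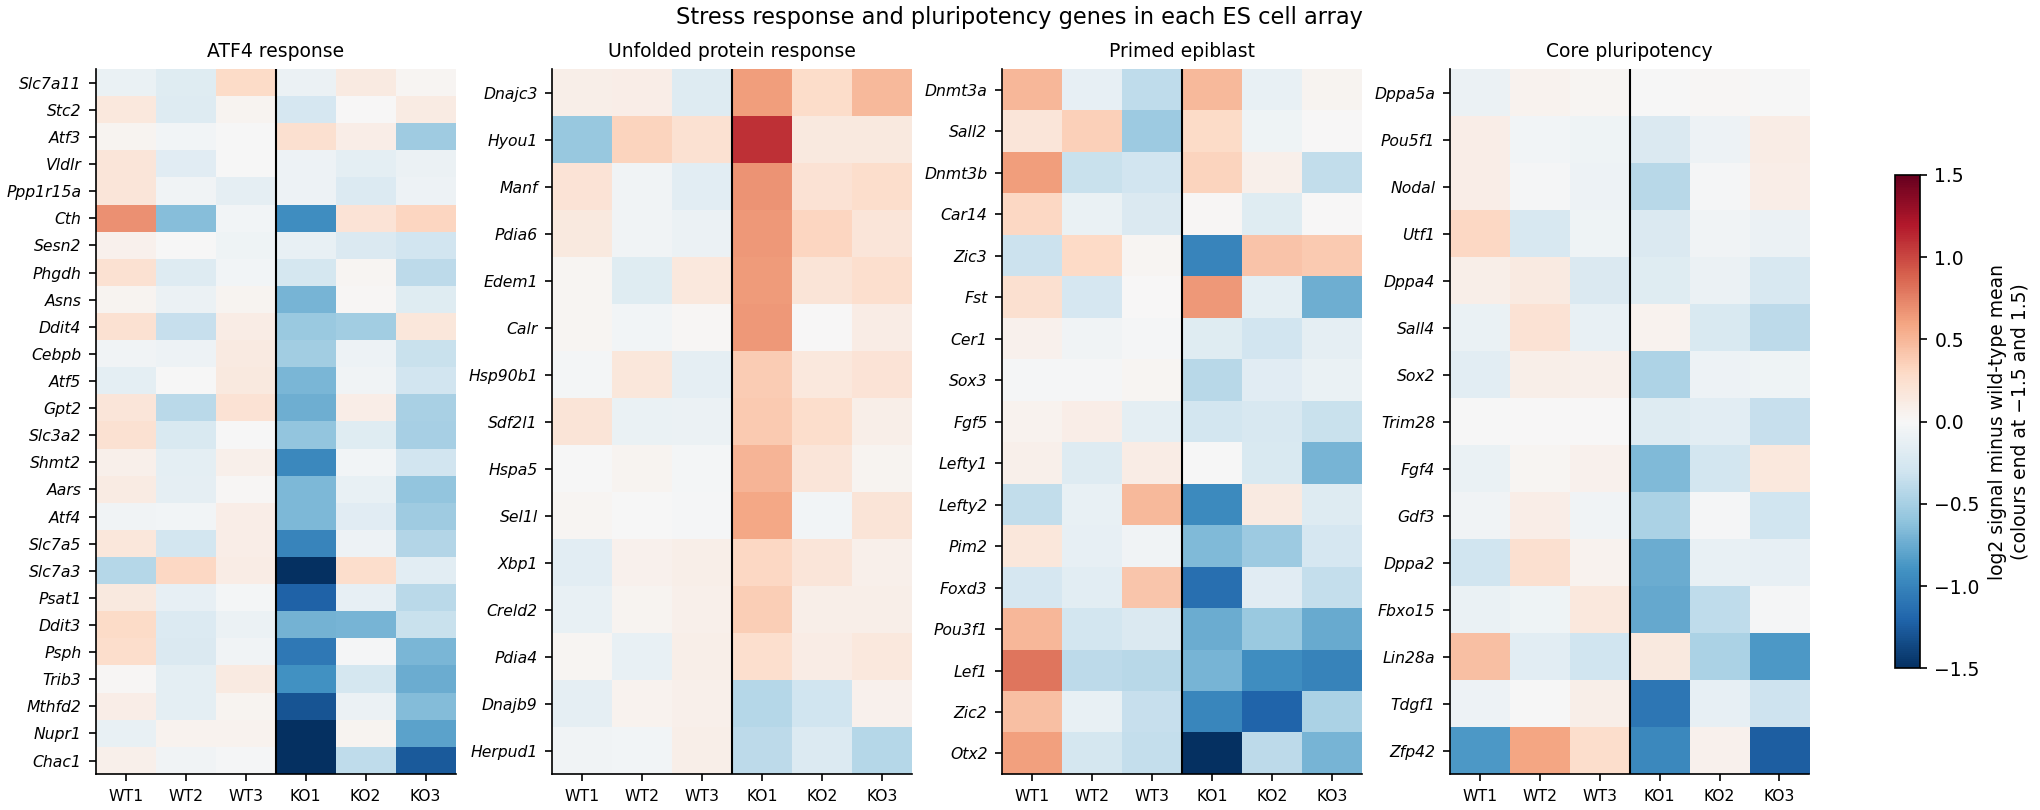
Log2 signal minus the wild-type mean of each measured gene of the ATF4 response (26), the unfolded protein response (15), the primed epiblast (17) and core pluripotency (15) in the 3 wild-type (WT) and 3 knockout (KO) ES cell arrays; the colour scale ends at -1.5 and 1.5. The ATF4 genes are palest in KO2 (list mean 10.90, against 10.24 in KO1 and 10.64 in KO3), and the unfolded protein response genes are strongest in KO1.

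Early neural markers were low in both groups and lower in the knockout. Of 16 genes 13 had a lower knockout mean, with a median of -0.15, and the mean level was 6.80 to 6.90 in the wild-type and 6.67 to 6.75 in the knockout arrays. The intermediate filament gene Nes gave 9.20, 9.28 and 9.04 in the wild-type and 8.87, 8.96 and 8.78 in the knockout arrays (-0.30, SE 0.12), and Sox1 differed by -0.20 (SE 0.11). Of 17 primitive streak and mesoderm genes 13 had a lower knockout mean, with a median of -0.09. Fgf8 gave 6.85, 6.57 and 6.47 in the wild-type and 6.31, 5.90 and 6.02 in the knockout arrays (-0.56, SE 0.15). All these signals were below the median gene (8.39) except that of Nes.

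Extraembryonic endoderm, trophoblast and epithelial markers had higher knockout means, the first of these mainly through knockout array 1. The endoderm list had 27 of 33 genes with a higher knockout mean and a median of 0.69, but 0.18 without both arrays numbered 1. Without knockout array 1 alone the median was -0.001. In 6 genes all knockout arrays were above all wild-type arrays (6.34% over all genes) and in 2 below (9.3%). Col4a2, a basement membrane collagen gene, gave 9.75, 8.91 and 9.07 in the wild-type and 12.69, 9.80 and 10.14 in the knockout arrays (1.63, SE 0.70). Cited1, an X-linked transcription cofactor gene, gave 8.54, 8.10 and 8.58 in the wild-type and 10.83, 9.16 and 9.76 in the knockout arrays (1.51, SE 0.39), and Sparc, a matrix protein gene, gave 12.76, 12.16 and 12.68 in the wild-type and 14.07, 12.83 and 13.06 in the knockout arrays (0.79, SE 0.32). For these 3 genes the other knockout arrays also stood above the wild type. Without both arrays numbered 1 the differences were 0.98, 1.12 and 0.53. By contrast, Gata4 (0.72, SE 0.72) and Sox17 (0.69, SE 0.69), which specify endoderm, differed by -0.09 and -0.10 without both arrays numbered 1. Rbp4, a retinol carrier gene of the same list, gave 7.76, 7.44 and 7.63 in the wild-type and 6.42, 6.93 and 7.10 in the knockout arrays (-0.80, SE 0.19, and -0.52 without the arrays numbered 1).

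Of 17 trophoblast markers 13 stood higher in the knockout by mean, with a list median of 0.31, or 0.42 without both arrays numbered 1. In 5 genes all knockout arrays lay above all wild-type arrays (6.34% over all genes) and in 2 below (9.3%). The X-linked Rhox6 and Rhox9, described above, are among the 5. The list shares Krt8 and Krt18 with the epithelial list. Plet1, a surface protein gene of trophoblast progenitors, gave 8.97, 8.43 and 8.54 in the wild-type and 9.63, 9.43 and 9.55 in the knockout arrays (0.89, SE 0.16, limma adjusted p = 0.501). Hand1, a trophoblast giant cell factor gene, gave 8.09, 8.18 and 8.29 in the wild-type and 8.71, 8.69 and 8.62 in the knockout arrays (0.49, SE 0.11). The keratin gene Krt7 gave 8.20, 7.91 and 8.87 in the wild-type and 10.83, 9.39 and 9.24 in the knockout arrays (1.5, SE 0.44). The groups of these 3 genes did not overlap, and the Krt7 difference was 0.93 without both arrays numbered 1. The defining trophoblast stem cell factors had overlapping or lower knockout arrays: Cdx2 gave 7.56, 7.60 and 7.5 in the wild-type and 7.45, 7.12 and 7.34 in the knockout arrays (-0.25, SE 0.12), and Elf5 stayed below 7 in all 6 arrays (0.25, SE 0.14).

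Of 18 epithelial markers 16 stood higher in the knockout by mean, with a list median of 0.62, or 0.50 without both arrays numbered 1. Leaving out wild-type array 2 gave 0.36 and leaving out knockout array 1 gave 0.35. In 2 genes all knockout arrays lay above all wild-type arrays, against 6.34% of all genes. The E-cadherin gene Cdh1 gave 12.29, 12.14 and 12.22 in the wild-type and 12.58, 12.55 and 12.59 in the knockout arrays (0.36, SE 0.09, limma adjusted p = 0.504). The tight junction gene Cldn4 gave 11.26, 10.35 and 10.88 in the wild-type and 11.76, 11.48 and 11.93 in the knockout arrays (0.89, SE 0.24). Cldn6, another claudin gene, gave 11.40, 9.05 and 10.05 in the wild-type and 12.69, 11.48 and 11.18 in the knockout arrays (1.62, SE 0.61). Wild-type array 1 was the highest wild-type array for all 3 genes, and for Cldn6 it reached the knockout range. The endoderm marker levels were also highest in the array numbered 1 of each group, and their part in these differences was not tested.

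**Figure D5:**
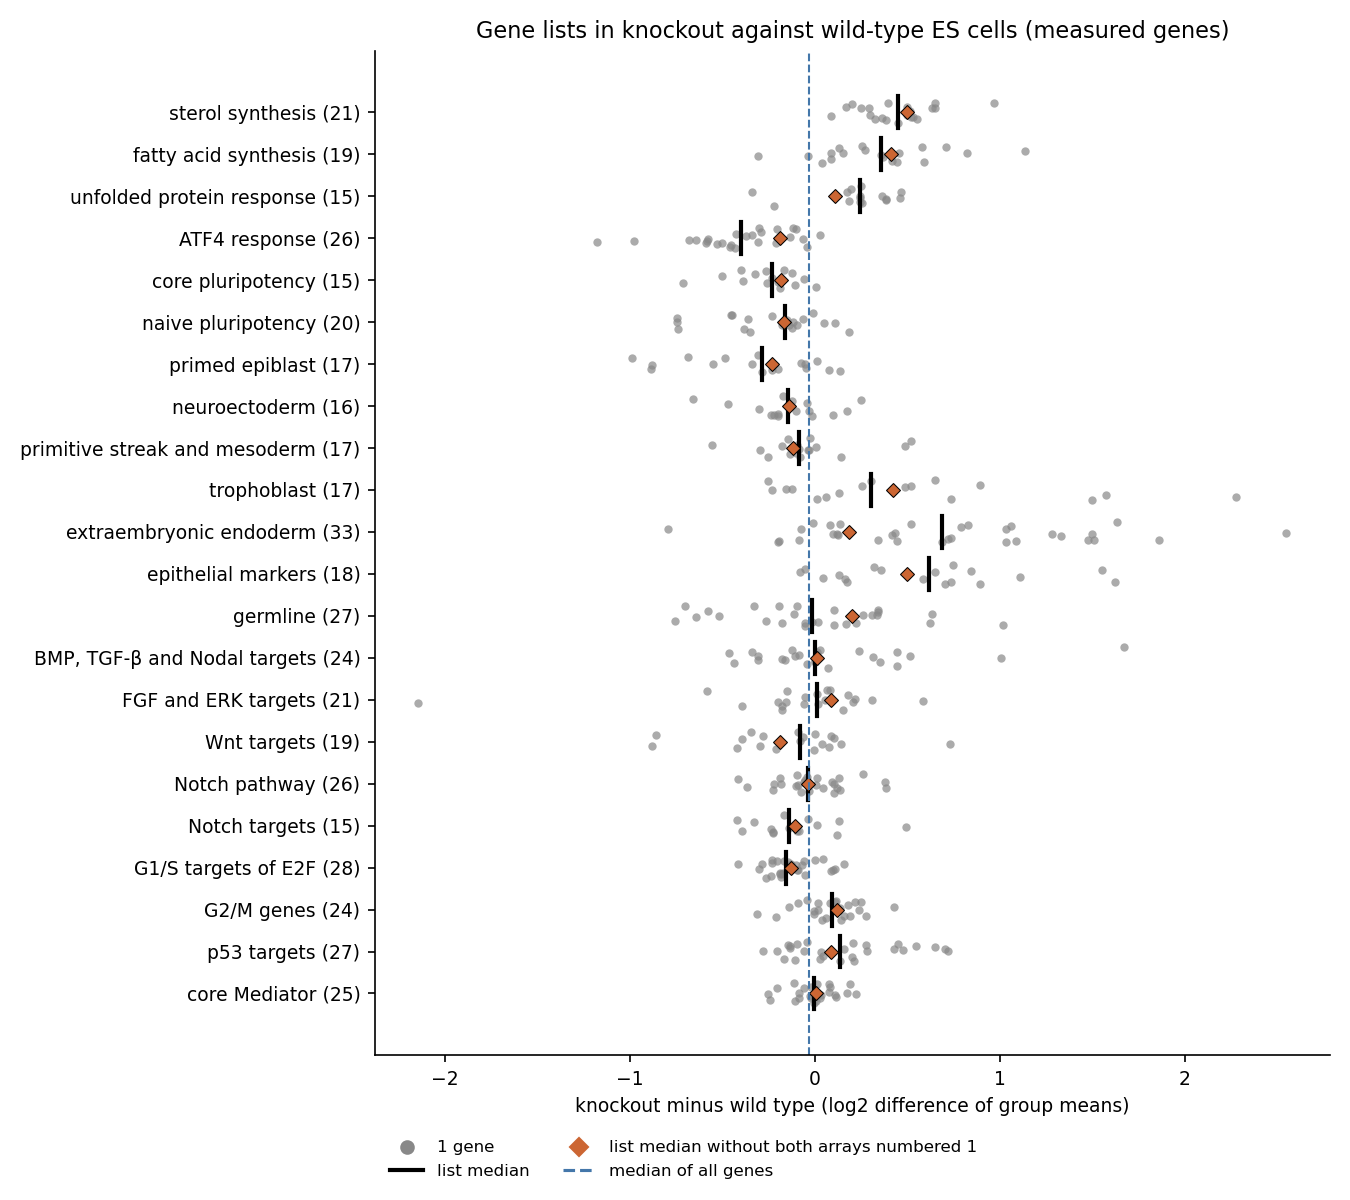
Difference of group means (knockout minus wild type, log2) for each measured gene (dots) of 22 gene lists in ES cells, with the list median (black bar), the list median without both arrays numbered 1 (orange diamond) and the median of all genes (dashed line, -0.033). The number after each list name is its count of measured genes; sterol and fatty acid synthesis lie to the right and ATF4 response and primed epiblast genes to the left, and the endoderm median moves from 0.69 to 0.18 without the arrays numbered 1.

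Germline genes, many of which ES cells keep silent by DNA methylation, depended on the array. Of 27 measured genes 13 had a higher and 14 a lower knockout mean, with a median of -0.01, and 0.20 without both arrays numbered 1. Ddx4, the germ cell helicase gene also called Vasa, gave 7.84, 7.09 and 7.22 in the wild-type and 7.72, 8.80 and 8.68 in the knockout arrays. Knockout arrays 2 and 3 were above all wild-type arrays and knockout array 1 was among them (1.02, SE 0.32, limma adjusted p = 0.522), and without both arrays numbered 1 the gene was called (1.58, adjusted p = 0.0433). Mael, a gene of the piRNA pathway that restrains transposons, gave 8.28, 9.09 and 9.51 in the wild-type and 7.51, 9.94 and 10.44 in the knockout arrays, low in both arrays numbered 1 (0.34, SE 0.72, and 0.89 without them). Dazl, an RNA-binding protein gene of germ cells, gave 8.45, 9.67 and 9.32 in the wild-type and 7.40, 8.34 and 9.43 in the knockout arrays (-0.76, SE 0.51). Tex19.1, a germline gene active in ES cells, gave 12.30, 12.65 and 12.99 in the wild-type and 11.75, 12.23 and 12.24 in the knockout arrays (-0.58, SE 0.21).

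Without both arrays numbered 1, in a fit of 2 against 2 arrays, 6 genes were called (0.0351%). 4933402E13Rik was the only gene shared with the calls from all 6 arrays. Tex13b, an X-linked germ cell gene, rose by 2.66 in that fit (limma adjusted p = 0.0133), with 5.87, 6.65 and 6.49 in the wild-type and 5.27, 9.05 and 9.41 in the knockout arrays. Its signal in knockout array 1 was the lowest of all. Mpzl2, an epithelial adhesion molecule gene, rose by 2.04 (adjusted p = 0.0133), with 10.62, 8.66 and 8.76 in the wild-type and 10.21, 10.80 and 10.71 in the knockout arrays. Srgn, which encodes the proteoglycan serglycin and is in the endoderm list, rose by 2.15 (adjusted p = 0.0329), with 10.75, 7.44 and 7.82 in the wild-type and 14.09, 9.68 and 9.88 in the knockout arrays. In Srgn both arrays numbered 1 were far above the others of their group. 2210409E12Rik fell by 3.26 (adjusted p = 0.03), with 8.21, 9.89 and 10.14 in the wild-type and 9.97, 7.14 and 6.38 in the knockout arrays, so that its difference between the arrays numbered 1 had the opposite sign. The same held for Tex13b and Mpzl2, and for Ddx4, also called in that fit.

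The BMP, TGF-β and Nodal target list, which holds Id2, was split in direction. Of 24 measured genes 11 had a higher and 13 a lower knockout mean, with a median of 0.00. The other BMP-inducible Id genes varied by array. Id1 gave 11.68, 11.42 and 10.81 in the wild-type and 11.10, 12.05 and 11.82 in the knockout arrays (0.35, SE 0.30). Id3 gave 8.28, 9.62 and 9.05 in the wild-type and 8.97, 9.06 and 7.60 in the knockout arrays (-0.44, SE 0.46). Both had overlapping groups. When both arrays numbered 1 were left out, Id1 differed by 0.82, with knockout arrays 2 and 3 above all wild-type arrays, and Id3 by -1.0. Tgif1, a corepressor gene of the TGF-β pathway, gave 12.44, 12.61 and 12.58 in the wild-type and 11.84, 12.28 and 12.12 in the knockout arrays (-0.46, SE 0.13).

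The FGF and ERK target list, which holds Egr1, was split as well. Of 21 measured genes 11 had a higher and 10 a lower knockout mean, with a median of 0.01. The ERK phosphatase gene Dusp6, a common readout of ERK activity, gave 10.27, 9.77 and 9.81 in the wild-type and 10.15, 10.38 and 9.97 in the knockout arrays (0.21, SE 0.18, and 0.38 without the arrays numbered 1). Mycn, the Myc family gene of ES cells, gave 11.25, 10.76 and 11.27 in the wild-type and 10.64, 10.62 and 10.28 in the knockout arrays (-0.58, SE 0.18), and Phlda1 gave 9.67, 9.44 and 9.35 in the wild-type and 10.56, 9.80 and 9.85 in the knockout arrays (0.59, SE 0.22). The groups of Mycn and Phlda1 did not overlap, in opposite directions. Wnt targets had 12 of 19 lower knockout means and a median of -0.08, which was -0.19 without both arrays numbered 1 and ran from -0.15 to -0.01 leaving out single arrays. Axin2, the most general of them, differed by 0.09 (SE 0.11).

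Notch genes were read because cyclin C with CDK8 can mark the intracellular part of Notch for degradation. The pathway list had 12 of 26 genes with a higher knockout mean and a median of -0.04, and the target list 4 of 15 with a median of -0.14, or -0.07 without knockout array 2. The receptor gene Notch1 gave 9.56, 9.76 and 9.58 in the wild-type and 9.80, 9.58 and 9.54 in the knockout arrays (0.01, SE 0.13). The target gene Hes1, a repressor that Notch switches on, gave 10.33, 10.46 and 10.52 in the wild-type and 10.03, 10.66 and 10.51 in the knockout arrays (-0.04, SE 0.17). Both sets of arrays overlapped, and the values without both arrays numbered 1 were -0.11 for Notch1 and 0.09 for Hes1. In 2 of the 26 pathway genes all knockout arrays lay above (6.34% over all genes) and in 2 below (9.3%), near the shares over all genes. Those above were Ncstn, a subunit of gamma-secretase, with 0.38 (SE 0.13, and 0.25 without the arrays numbered 1), and the protease gene Adam10, with 0.39 (SE 0.16). Sox9, a Notch-responsive factor gene, differed by -0.33 (SE 0.12).

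Cell cycle genes differed little. Of 28 G1/S targets of E2F, which carry DNA replication, 23 had a lower knockout mean, with a median of -0.16, which was -0.24 without knockout array 2 and -0.04 without knockout array 3. Of 24 G2/M genes, which carry mitosis, 17 had a higher one, with a median of 0.09, or 0.02 without knockout array 2. In 7 of them all knockout arrays were above all wild-type arrays, against 6.34% of all genes. The primase gene Prim1 gave 11.54, 11.56 and 11.47 in the wild-type and 11.07, 11.42 and 11.17 in the knockout arrays (-0.30, SE 0.12). The mitotic cyclin gene Ccnb2 gave 12.74, 12.50 and 12.65 in the wild-type and 12.88, 12.85 and 12.99 in the knockout arrays (0.27, SE 0.10), and the phosphatase gene Cdc25b, which activates CDK1, gave 9.49, 9.08 and 9.16 in the wild-type and 9.68, 9.56 and 9.77 in the knockout arrays (0.43, SE 0.14). All 3 genes had groups that did not overlap. Cyclin E1, encoded by Ccne1, differed by -0.13 (SE 0.19), and cyclin D1, encoded by Ccnd1, gave 11.31, 11.36 and 11.22 in the wild-type and 10.70, 11.27 and 10.64 in the knockout arrays (-0.42, SE 0.18).

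Of 27 p53 targets 17 stood higher in the knockout by mean, with a list median of 0.13, which was 0.03 without wild-type array 1 or without knockout array 3. The CDK inhibitor gene Cdkn1a, which encodes p21, gave 10.88, 10.20 and 10.09 in the wild-type and 11.07, 10.74 and 11.31 in the knockout arrays (0.65, SE 0.24). The antiproliferative gene Btg2 gave 10.90, 10.57 and 10.77 in the wild-type and 11.39, 10.93 and 11.57 in the knockout arrays (0.55, SE 0.18). Trp53, the p53 gene, gave 11.82, 11.60 and 11.70 in the wild-type and 11.49, 11.41 and 11.38 in the knockout arrays (-0.28, SE 0.10). The groups overlapped for Cdkn1a alone. None of these genes was called.

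The remaining lists had medians close to that of all genes. The medians were -0.08 for DNA methylation and polycomb genes (19 measured), -0.05 for imprinted genes (29), -0.07 for interferon-stimulated genes (29), -0.06 for NRF2 targets (16), 0.00 for glycolysis and hypoxia genes (20), 0.11 for heat shock genes (7) and 0.05 for G1 cyclins and CDK inhibitors (16). Leaving out single arrays, these medians lay between -0.15 (DNA methylation and polycomb) and 0.13 (heat shock). The heat shock median was -0.06 without wild-type array 1, -0.03 without knockout array 1 and -0.07 without both arrays numbered 1. Single genes with groups apart in these lists included the maintenance methyltransferase gene Dnmt1, with 12.04, 11.95 and 12.13 in the wild-type and 11.76, 11.78 and 11.71 in the knockout arrays (-0.29, SE 0.09). The inducible chaperone gene Hspa1b gave 8.84, 8.82 and 8.65 in the wild-type and 8.46, 8.19 and 8.16 in the knockout arrays (-0.50, SE 0.13). The hypoxia-inducible gene Ndrg1 gave 10.29, 9.73 and 10.58 in the wild-type and 10.76, 10.90 and 11.99 in the knockout arrays (1.02, SE 0.35), and the imprinted gene Dlk1, a Notch ligand relative, differed by -0.38 (SE 0.12). The 2-cell-like list had 5 measured genes and a median of 0.08.

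Whether the ES cell differences also occurred in the other cell types was tested in 1 fit of all 18 arrays, whose spread is pooled over cell types. The ES cell difference was unlike the fibroblast difference in 170 genes (0.995%) and unlike the brain difference in 47 (0.275%) at a limma adjusted p below 0.05. Apart from Ccnc, the genes given next were picked for their ES cell difference. The contrasts use the same ES cell values again, so this choice favours small p-values. 4933402E13Rik differed by 0.08 in fibroblasts and 0.05 in brain, against 3.33 in ES cells (adjusted p of the differences 1e-06 and 8.62e-07). Scd1 differed by 0.05 in fibroblasts and -0.03 in brain, against 1.14 (adjusted p = 0.0144 and 0.0174), and Sc5d by -0.09 and -0.02, against 0.97 (0.00164 and 0.00371). Egr1 differed by -0.32 in fibroblasts and -0.23 in brain, against -2.14 (0.0168 and 0.0241). The Ccnc difference was itself larger in size in ES cells, with an ES minus fibroblast value of -1.07 (adjusted p = 0.0348) and an ES minus brain value of -1.67 (0.00365), and its part in the other differences was not tested. Over the 40 lipid synthesis genes the median difference was 0.39 in ES cells, and the separate medians of sterol and fatty acid genes were 0.05 and 0.06 in fibroblasts and -0.09 and 0.01 in brain.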

How the data were processed

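Transcript levels were measured on microarrays in 18 samples, of which 6 were ES cells (3 wild type, 3 cyclin C knockout). Per the submitters' processing notes the deposited values are RMA signals, and they are on the log2 scale as the authors deposited them. The labels name no array type, chip definition or RMA version. RMA corrects background, makes the distributions of arrays alike and summarises probes, so a shift shared by most genes would not be seen. RNA from TRIzol and RNeasy was amplified from oligo-dT with biotin labelling, per the labels' protocols. Nothing was renormalised for the main results.

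Of 24185 rows, 64 were controls and 1561 of 24121 transcript probe sets had no symbol. The 22560 probe sets with 1 symbol gave 17091 genes, with the brightest probe set kept for the 3432 genes that had several. Groups were compared with limma 3.58.1 (lmFit, then eBayes with an intensity trend, R 4.3.3) on the 6 arrays, with Benjamini-Hochberg adjustment over all 17091 genes. SE is the moderated standard error of a difference. Differences between cell types were contrasts in 1 fit of all 18 arrays. The tests were tried on simulated data with independent noise for each gene and array. Such data lack the departures that the arrays numbered 1 share, so the trial does not cover them. Arrays give no read depth, and 3 arrays a group limit the precision. The labels call the samples biological replicates without saying what was separate. Tables and motif counts were made with Python 3.11.15 and figures with matplotlib 3.10.9. Promoter sequences and chromosomes are those of RefSeq (GRCm38.p6).

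The members and the 33 gene lists were chosen with earlier results of these data known. Of 664 listed genes, 616 were measured. The naming rule took Ccnc and the kinase module and called genes. It took the 20 largest differences each way with groups apart and the higher group mean above the median gene. It also took the 10 largest each way without both arrays numbered 1 and, for each list, its first 4 genes and the 6 with the smallest p. It further took the 15 largest departures each way of each array numbered 1. It covers 336 genes, of which a part is named, and some genes are not reported here. Gng10, Ubd, Nsdhl, Ebp, Srebf1, Srebf2 and the neighbours of Ccnc lie outside it. Deviations from the group means correlated at 0.37, 0.32 and 0.08 between arrays numbered 1, 2 and 3 and at -0.38 to 0.20 between other numbers. The values for the arrays numbered 1 and for those numbered 2 thus lay above all values between other numbers, and that for the arrays numbered 3 did not. The labels name no shared source, so the samples were not treated as pairs in the main fit. Alternatives were a replicate block, leaving out arrays, 1 fit of all arrays, the mean of probe sets, a filter on dim genes, quantile normalisation, median centring, no trend, a robust prior and array weights. A term for the arrays numbered 1 and the removal of X-linked and Y-linked genes were chosen after seeing the data.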

Additional observations from a re-analysis of the deposited data

Results flagged for a closer look

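For the genes named here, an ES cell difference unlike that of another cell type was tested as a contrast in the fit of all 18 arrays (limma, adjusted p below 0.05). The limits given above for this fit hold here as well. They are a pooled spread and, for most of the genes, a choice by their ES cell difference. Values are the ES cell difference minus the other one on the log2 scale.

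Against both fibroblasts and brain, the values were 3.25 and 3.28 for 4933402E13Rik, 1.54 and 1.70 for Fthl17a, 1.33 and 1.61 for Ckmt1, 1.06 and 0.99 for Sc5d, 1.08 and 1.17 for Scd1, and 0.79 and 0.91 for Scd2. Smaller ones were 0.53 and 0.58 for Sqle and 0.79 and 0.78 for Plet1, and Tstd3, the neighbour of Ccnc, had 1.44 and 0.93. Negative values against both were -1.82 and -1.91 for Egr1, -1.65 and -1.71 for Ubd, -1.07 and -1.67 for Ccnc, -0.80 and -0.70 for Arrdc4, and -0.58 and -0.80 for Klf11.

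Against fibroblasts alone the difference was past the threshold for Gng10 (1.23), Fads1 (0.47), Khsrp (-1.05), Fgf17 (-0.89), Hspa1b (-0.84) and Nes (-0.66). Against brain alone it was past it for Id2 (2.06) and Mmp11 (-0.95). That a gene passed in 1 of these contrasts does not show that the contrasts differ. Groups of 3 arrays were too small for the test of single outlying arrays, and the departures of the arrays numbered 1 are given above as values.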

How the results depend on the processing

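The number of called genes, 2 in the fit of 6 arrays, was 6 without both arrays numbered 1 (5 rose, 1 fell), 1 with the replicate block, 632 in 1 fit of all 18 arrays (357 rose, 275 fell), 1 with the mean of probe sets, 5 with the filter at the 40th percentile, 4 with array weights and 1 without X-linked and Y-linked genes. Leaving out single arrays gave 0 to 6 calls. At the 0 calls of limma, 1409, 1102, 1066 and 1570 genes had an unadjusted p below 0.05 (without wild-type array 1, 2 or 3 and without knockout array 2). The pooled fit takes its spread from fibroblasts and brain as well. Listed genes called, 1 in the main fit, were 2 without both arrays numbered 1, 0 with the replicate block, 55 in the fit of 18 arrays, 0 with the mean of probe sets, 2 with the filter and 0 to 1 leaving out single arrays.

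A replicate block, 1 fit of all arrays, the filter, no trend and a robust prior cannot change a difference. Neither can the term for the arrays numbered 1 or the removal of X-linked and Y-linked genes. Ccnc kept its direction in all the other alternatives. It was -2.25 (limma adjusted p = 0.0536) without both arrays numbered 1, -2.37 (0.0677) with the replicate block, -1.76 (0.0733) with the mean of probe sets, and -2.56 to -2.24 leaving out single arrays. 4933402E13Rik was called in 13 of 17 alternatives. Contrasts against fibroblasts gave 553 genes without both arrays numbered 1, 523 with the replicate block and 129 to 391 leaving out single arrays, against 170. Those against brain gave 474, 323 and 41 to 220, against 47. The cause of these shifts was not tested.

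Of 124 other named genes, 107 kept their direction in all alternatives. The alternatives named above that cannot change a difference add nothing to this count. Leaving out single arrays, the range crossed 0 for Acaca (-0.0031 to 0.21), Atf3 (-0.22 to 0.17), Ccne1 (-0.27 to 0.10), Col1a1 (-0.18 to 0.26), Dab2 (-0.0652 to 2.05), Ddx3y (-0.94 to 0.54), Eif2s3y (-1.30 to 1.17), Esrrb (-0.33 to 0.0673), Gata4 (-0.22 to 1.37), Hes1 (-0.17 to 0.15), Id3 (-0.79 to 0.034), Mael (-0.24 to 1.23), Med12 (-0.13 to 0.28), Med13 (-0.25 to 0.10), Notch1 (-0.0747 to 0.0669), Pou5f1 (-0.15 to 0.0164) and Sox17 (-0.24 to 1.22). Without both arrays numbered 1 the sign turned for Col1a1 (-0.40), Eif2s3y (0.0796), Gata4 (-0.0857), Hes1 (0.0925), Notch1 (-0.11), Pou5f1 (0.0666) and Sox17 (-0.10). With array weights it turned for Col1a1 (-0.0761), Hes1 (0.0088) and Notch1 (-0.0184), and with quantile normalisation for Notch1 (-0.04). None of these genes was called. Of 560 list medians under the alternatives, 28 in 15 of 33 lists moved by more than the spread between arrays. Among these, the filter on dim genes gave 0.73 for trophoblast markers and -0.39 for early neural markers. A list outside the 15 is not thereby stable. The endoderm list had no counted move, yet its median went from 0.69 to -0.001 without knockout array 1. The 2-cell-like list gave no median under the filter. With 3 arrays a group, small differences are beyond the precision of the design.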
